A study of Mus musculus with 12 samples.

Results

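The Scx-associated regions described here are those that lie in introns close to a gene start. From the deposited table of 12097 Scx peaks, a peak was taken when its midpoint was inside an annotated transcript but in no exon, outside the promoter (1000 bp upstream to 100 bp downstream of a transcription start site, TSS) and the transcript end (100 bp before to 1000 bp after it), and within 5 kb of the TSS of any transcript. A total of 1311 peaks, each 200 bp wide, met this rule, whereas the other 3309 intron peaks lay farther from every TSS. Peaks of the latter group are called far intron peaks below.

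Scx binding was measured by ChIP-seq with an anti-FLAG antibody in whole forelimbs at E13.5 (embryonic day), with 3 ChIP and 3 input samples. The embryos were homozygous for the *Scx* Flag knock-in allele, which adds a 2xFLAG tag to the end of the endogenous Scx protein, and 10 pairs of forelimbs were pooled for each replicate. Gene expression was measured by RNA-seq at E15.5 in cells sorted from forelimbs for the *Scx-GFP* transgene, in 3 *Scx*-/- samples and 3 control samples that the submitters describe as wild type and the methods as littermates. All of these sorted cells carried *Scx-GFP*, and in the *Scx*-/- allele a LacZ cassette replaces the coding sequence. The peak table holds positions but no height or p-value of single peaks, and the expression table holds the authors' mean FPKM (fragments per kb of transcript, scaled to library size) of each group but no value of a single sample. The tables give no depth behind a single peak or mean, although the methods state that aligned ChIP reads were down-sampled to a common depth, and the intervals given below cover counting error over regions only.

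Scleraxis (Scx) belongs to the bHLH (basic helix-loop-helix) family of transcription factors and marks tendon progenitors and tendon cells. Proteins of this class bind DNA as dimers, Scx usually with a widely expressed E-protein, at E-boxes of the form CANNTG. Introns just downstream of a TSS often hold enhancers, and at many genes the CpG island of the promoter, a stretch rich in G, C and the dinucleotide CG, runs on into the first intron. The Scx core is used here for the E-boxes CAGATG, which reads as CATCTG on the other strand, and the palindromes CAGCTG and CATATG. The Nfat core, TGGAAA or TTTCCA, is the common part of the binding sites of Nfat proteins, factors activated by calcineurin in response to calcium.

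The following regions show the range of sequence among these peaks, and their values are given further below. Each is the plus strand of mm10 from the RefSeq genome sequence, 5′ to 3′, in lower case, with Scx cores and Nfat cores in capitals. Regions at *Col27a1* and *Smad3* have 2 cores each. The *Col11a2* region has 3 cores and the *Tnnt1* region 4.
*Col27a1*, chr4:63217437-63217636: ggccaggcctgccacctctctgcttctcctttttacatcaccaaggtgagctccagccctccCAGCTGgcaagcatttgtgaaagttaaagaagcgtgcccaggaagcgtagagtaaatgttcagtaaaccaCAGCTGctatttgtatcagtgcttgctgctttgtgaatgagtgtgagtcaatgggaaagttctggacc
*Smad3*, chr9:63756580-63756779: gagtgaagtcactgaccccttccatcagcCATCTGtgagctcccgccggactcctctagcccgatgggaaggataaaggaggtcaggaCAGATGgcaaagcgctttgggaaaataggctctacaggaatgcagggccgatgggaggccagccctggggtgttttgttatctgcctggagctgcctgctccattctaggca
*Col11a2*, chr17:34041595-34041794: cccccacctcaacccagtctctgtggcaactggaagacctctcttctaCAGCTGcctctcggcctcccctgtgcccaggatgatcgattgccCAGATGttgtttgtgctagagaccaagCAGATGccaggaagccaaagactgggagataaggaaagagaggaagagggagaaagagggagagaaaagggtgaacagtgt
*Tnnt1*, chr7:4510114-4510313: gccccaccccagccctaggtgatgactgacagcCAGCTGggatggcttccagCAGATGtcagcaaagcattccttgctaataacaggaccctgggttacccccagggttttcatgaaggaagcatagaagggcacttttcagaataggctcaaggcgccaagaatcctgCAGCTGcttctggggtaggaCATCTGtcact

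The next regions hold both a Scx core and an Nfat core, at genes that the study lists as lower in *Scx*-/- cells (*Aqp1* and *Naalad2*) and at *Lims1*, a gene of focal adhesions. The region at *Aspn*, the gene of a matrix protein, has a Scx core and no Nfat core.
*Aqp1*, chr6:55338436-55338635: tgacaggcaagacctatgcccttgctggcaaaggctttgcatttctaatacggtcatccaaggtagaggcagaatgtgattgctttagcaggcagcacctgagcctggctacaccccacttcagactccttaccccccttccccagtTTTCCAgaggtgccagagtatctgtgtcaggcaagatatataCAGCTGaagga
*Naalad2*, chr9:18381050-18381249: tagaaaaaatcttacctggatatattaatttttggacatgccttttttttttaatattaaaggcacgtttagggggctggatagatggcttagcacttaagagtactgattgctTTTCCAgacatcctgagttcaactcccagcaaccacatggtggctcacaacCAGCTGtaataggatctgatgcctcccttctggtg
*Lims1*, chr10:58324081-58324280: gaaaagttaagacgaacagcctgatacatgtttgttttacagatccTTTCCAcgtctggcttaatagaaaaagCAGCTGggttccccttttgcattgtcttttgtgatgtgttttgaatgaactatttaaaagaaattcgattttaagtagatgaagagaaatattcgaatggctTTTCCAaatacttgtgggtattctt
*Aspn*, chr13:49545697-49545896: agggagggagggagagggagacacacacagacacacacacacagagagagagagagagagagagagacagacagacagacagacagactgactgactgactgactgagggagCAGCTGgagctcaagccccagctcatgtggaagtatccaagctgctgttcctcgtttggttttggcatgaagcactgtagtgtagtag

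The last regions show many cores and none. In the regions in *Xrcc5* and *Lingo2* the cores recur at regular spacings, and in *Scaf11* no Scx core was found. In the *Scaf11* region the capitals mark the letters GGGCGG, which read as CCGCCC on the other strand, the core of binding sites of Sp and Klf factors.
*Xrcc5*, chr1:72309809-72310008: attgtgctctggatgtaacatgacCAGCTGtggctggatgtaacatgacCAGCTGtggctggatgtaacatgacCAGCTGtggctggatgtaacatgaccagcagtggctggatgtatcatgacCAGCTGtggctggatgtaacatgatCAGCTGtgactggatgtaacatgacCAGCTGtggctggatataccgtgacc
*Lingo2*, upstream of *Mir876*, chr4:36647078-36647277: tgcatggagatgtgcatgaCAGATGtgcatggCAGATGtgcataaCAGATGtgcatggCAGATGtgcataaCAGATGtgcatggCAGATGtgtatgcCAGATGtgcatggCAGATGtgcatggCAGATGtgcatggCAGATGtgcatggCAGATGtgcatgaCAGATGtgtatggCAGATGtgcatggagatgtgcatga
*Scaf11*, chr15:96460355-96460554: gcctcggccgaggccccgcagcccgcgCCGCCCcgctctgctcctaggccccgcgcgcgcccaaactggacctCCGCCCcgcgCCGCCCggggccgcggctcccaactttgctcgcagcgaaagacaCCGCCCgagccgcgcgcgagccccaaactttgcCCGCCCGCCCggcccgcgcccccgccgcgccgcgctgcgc

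Intron Scx peaks were densest within 1000 bp of the nearest TSS. Between 101 and 500 bp from the nearest TSS, 489 peaks lay in 7.77 Mb of eligible intron sequence, a density of 62.9 per Mb (95% exact Poisson interval 57.5 to 68.7). Between 501 and 1000 bp the density was 14.9 per Mb (12.9 to 17.2, 190 peaks), and between 1001 and 2000 bp it was 4.97 per Mb (4.33 to 5.67, 219 peaks). Farther out it was 3.80 per Mb between 2001 and 3000 bp (159 peaks), 2.7 between 3001 and 4000 bp (106 peaks) and 4.00 between 4001 and 5000 bp (148 peaks). Far intron sequence had 3.89 peaks per Mb, so that beyond 2 kb the density near starts was at or below the level of far introns. The median distance from the nearest TSS was 873 bp.

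**Figure D1:**
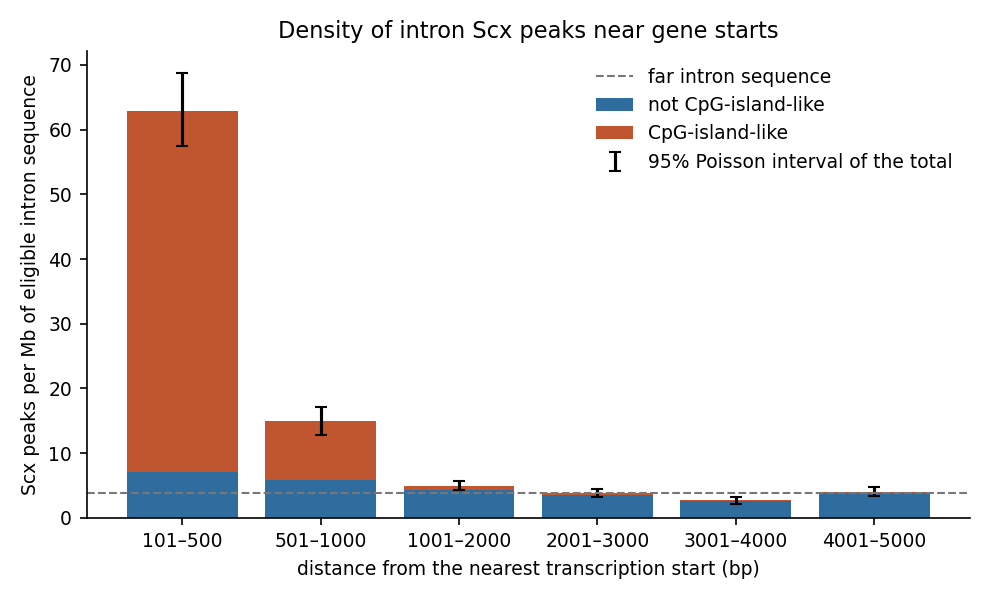
Scx peaks per Mb of intron sequence that the rule allows, in bins of distance from the nearest transcription start in bp. Stacked bars split the peaks into CpG-island-like (orange) and other (blue), error bars are 95% Poisson intervals of the total, and the dashed line is far intron sequence at 3.89 per Mb. Only the bins at 101 to 500 bp (62.9 per Mb) and 501 to 1000 bp (14.9 per Mb) are mostly CpG-island-like.

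Over all distances to 5 kb, near-start introns held 7.18 peaks per Mb (1311 in 183 Mb) and far introns 3.89 per Mb (3309 in 850 Mb), a rate ratio of 1.84 (95% interval 1.73 to 1.97, adjusted p = 1.24e-70 by an exact conditional binomial test, two-sided, adjusted over the 9 planned tests). First introns held more peaks than later introns within this distance. They had 1083 of the peaks (82.6%) at 9.72 per Mb, against 228 peaks at 3.20 per Mb in later introns, a rate ratio of 3.04 (2.63 to 3.52, adjusted p = 4.04e-64 by the same exact test). First introns also lie closer to starts, and within bins of distance, a comparison chosen after seeing the data, the rate ratio was 1.48 (1.26 to 1.74). The ratio was 2.24 (1.11 to 5.26) at 501 to 1000 bp, where 8 of the peaks were in later introns. It was 1.6 (1.17 to 2.22) at 1001 to 2000 bp and 1.53 (1.09 to 2.18) at 2001 to 3000 bp. The interval included equal densities at 101 to 500 bp (2.13, 0.825 to 7.84), where 4 peaks were in later introns, at 3001 to 4000 bp (1.22, 0.814 to 1.83) and at 4001 to 5000 bp (1.27, 0.907 to 1.78).

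Peaks close to starts differed from far intron peaks first of all in base composition. A region was called CpG-island-like when G and C made up at least 50% of its 200 bp and CG was present at a ratio of at least 0.6 to the number that its content of C and G gives. Of the near-start peaks, 598 were CpG-island-like (45.6%, 95% Wilson interval 42.9 to 48.3%), against 59 of 3309 far intron peaks (1.78%, 1.38 to 2.29%), an odds ratio of 46.2 (two-sided Fisher's exact test, adjusted p = 1.99e-300). Near-start intron sequence in no peak, divided into 819426 tiles of 200 bp, was CpG-island-like in 1.25% of the tiles. The tiles were not matched to the peaks for distance from a start. The bin at 101 to 500 bp held 489 of the 1311 peaks but 7.77 of the 183 Mb of eligible sequence. Among the peaks, the CpG-island-like share was lower at each step away from the start, from 88.8% at 101 to 500 bp to 60.5% at 501 to 1000 bp, 13.7% at 1001 to 2000 bp and 2.7% at 4001 to 5000 bp. The median GC content was 74.0% in the CpG-island-like regions and 48.0% in the other 713, close to the 46.5% of far intron peaks.

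The Scx core was less frequent in near-start peaks than in far intron and intergenic peaks, and more frequent than in promoter peaks. It was present in 639 of the 1311 regions (48.7%, 46.0 to 51.4%), in 26.5% of 2622 flanking windows (200 bp, centred 2000 bp from the peak, 24.9 to 28.2%), in 73.6% of far intron peaks (72 to 75%) and in 71.2% of 4127 intergenic peaks (69.8 to 72.6%). The odds ratio was 2.64 against the windows (adjusted p = 1.13e-42), 0.342 against far intron peaks (adjusted p = 3.45e-56) and 0.384 against intergenic peaks (adjusted p = 1.58e-48), each by a two-sided Fisher's exact test. In promoter peaks it was present in 35.2% of 2136 (33.2 to 37.3%), an odds ratio of 1.75 (adjusted p = 4.99e-15 by the same exact test). Exon peaks (38.6% of 948, 35.6 to 41.7%) and transcript end peaks (63.9% of 266, 58 to 69.4%) were not tested. The unit of these tests is the region, and 143 of the near-start peaks overlapped another peak, and neighbouring regions are thus not independent.

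The differences from the other classes of peaks were smaller without the CpG-island-like regions. Among the other 713 near-start peaks, 71.8% had a Scx core (68.4 to 75%), against 73.8% of far intron peaks without CpG-island-like regions (72.3 to 75.3%). The odds ratio between these groups was 0.902 (adjusted p = 0.338 by Fisher's exact test), and it was 1.0 against intergenic peaks treated in the same way. Within strata of GC content both differences kept their call, with Mantel-Haenszel odds ratios of 0.709 (0.6 to 0.838) against far intron peaks and 0.776 (0.661 to 0.910) against intergenic peaks. Against promoter peaks the call ended without CpG-island-like regions (71.8% and 66.0%, odds ratio 1.31, adjusted p = 0.0612 by Fisher's exact test) and within strata of GC content (odds ratio 1.04).

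CpG-island-like peaks in near-start introns carried few Scx cores. The core was present in 127 of 598 (21.2%, 18.1 to 24.7%), against 17.7% of the 10262 CpG-island-like tiles of near-start intron sequence in no peak (17.0 to 18.4%). In the other regions the core was present in 71.8% of peaks and 26.1% of tiles. Among CpG-island-like peaks elsewhere, the share was 27.3% in promoters (25.2 to 29.4%), 24.8% in exons (21.7 to 28.2%, 685 peaks), 26.6% at transcript ends (17.3 to 38.5%, 64 peaks), 57.6% in far introns (44.9 to 69.4%, 59 peaks) and 56.6% in intergenic sequence (48.6 to 64.2%, 152 peaks). Within the CpG-island-like near-start peaks it was 15.9% at 101 to 500 bp (12.8 to 19.6%, 434 peaks), 28.7% at 501 to 1000 bp (21.2 to 37.5%, 115 peaks) and 43.3% at 1001 to 2000 bp (27.4 to 60.8%, 30 peaks). These splits were chosen after seeing the data and are given with no test.

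**Figure D2:**
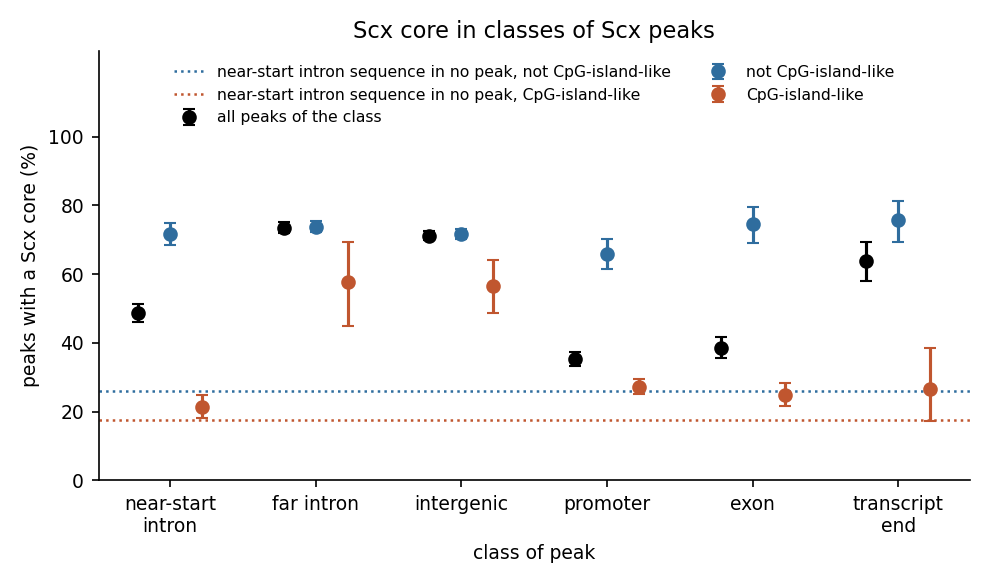
Share of Scx peaks with a Scx core in percent, by class of peak, for all peaks of a class (black), CpG-island-like peaks (orange) and other peaks (blue). Points are shares with 95% Wilson intervals, and dotted lines are 200 bp tiles of near-start intron sequence in no peak, at 26.1% for tiles that were not CpG-island-like and 17.7% for those that were. Near-start intron peaks lie at 71.8% where they are not CpG-island-like and at 21.2% where they are.

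**Figure D3:**
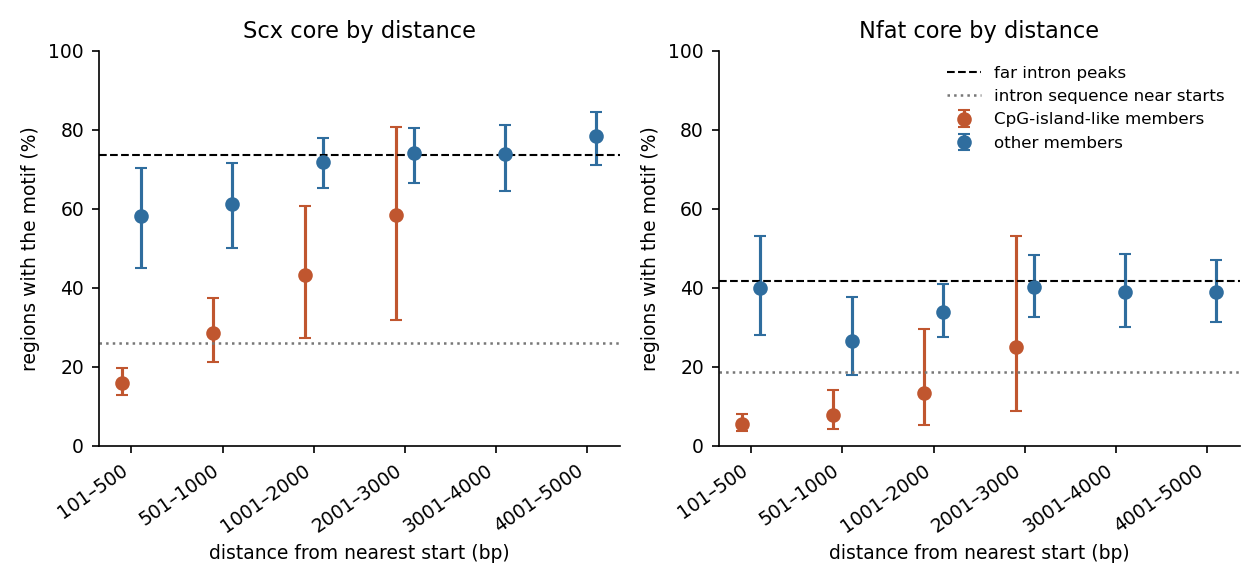
Share of near-start intron peaks with a Scx core (left) and an Nfat core (right) in percent, by distance from the nearest transcription start in bp, with 95% Wilson intervals, for CpG-island-like (orange) and other (blue) regions. Bins with fewer than 10 regions are left out, and the dashed lines are far intron peaks (73.6% and 41.7%). The dotted lines are all tiles of near-start intron sequence in no peak (26.0% and 18.7%), few of them CpG-island-like. CpG-island-like tiles, which are not drawn, have 17.7% and 11.5%. The Scx core share of CpG-island-like regions is 15.9% in the bin nearest to the start.

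The forms of the core had unequal shares. CAGATG was present in 48.1% of the near-start peaks that were not CpG-island-like (44.5 to 51.8%), CAGCTG in 32.4% (29.1 to 35.9%) and CATATG in 7.85% (6.10 to 10.1%). In the CpG-island-like peaks CAGCTG (81 of 598) was ahead of CAGATG (59 of 598, 9.87%, 7.73 to 12.5%) and CATATG was present in 1 region. CAGGTG, an E-box that is not part of the Scx core, was present in 19.4% of the former and 16.7% of the latter (13.9 to 19.9%). An E-box of any form was present in 89.8% of the former and 42.8% of the latter. In tiles of near-start intron sequence in no peak it was present in 66.0% of those not CpG-island-like and 49.4% of those CpG-island-like. In all tiles, of which 1.25% were CpG-island-like, CAGATG was present in 14.6%, CAGCTG in 8.06%, CATATG in 5.58% and CAGGTG in 13.2%.

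The bases beside CAGATG were also unequal. In near-start peaks that were not CpG-island-like, the base before CAGATG was C at 42.1% of 442 sites (37.6 to 46.7%) and T at 5.2% (3.49 to 7.69%). In tiles of near-start intron sequence in no peak that were not CpG-island-like either, C stood there at 22.2% of sites and T at 22.4%. The base after CAGATG was T at 44.1% of sites in the peaks (39.6 to 48.8%) and A at 7.47% (5.37 to 10.3%), against 26.1% and 24.3% in the tiles.

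Scx cores lay near the middle of the peaks. In the near-start peaks that were not CpG-island-like, 568 of 797 cores (71.3%) had their centre within 50 bp of the peak centre. The number of cores was 22.4 per 100 regions in the 20 bp just right of the centre, and 5.47 and 5.19 per 100 regions in the outermost 20 bp on either side. Far intron peaks had the same shape, with 20.2 per 100 regions just right of the centre. In the CpG-island-like peaks 88 of 157 cores (56.1%) were within 50 bp of the centre, and no 20 bp bin held more than 3.68 per 100 regions.

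**Figure D4:**
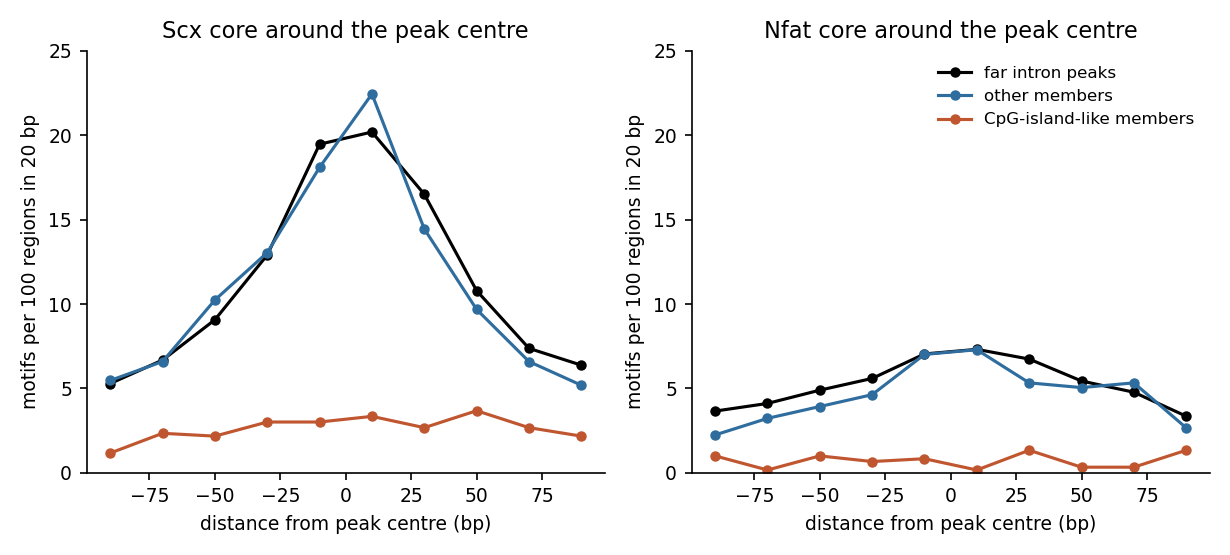
Number of Scx cores (left) and Nfat cores (right) per 100 regions in bins of 20 bp, by distance from the peak centre in bp. Lines are far intron peaks (black), near-start peaks that were CpG-island-like (orange) and other near-start peaks (blue). In the last group Scx cores reach 22.4 per 100 regions beside the centre, whereas in CpG-island-like peaks no bin exceeds 3.68.

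Of the 1311 regions, 672 had no Scx core, 418 had 1, 167 had 2, 43 had 3 and 11 had 4 or more. In regions with 2 to 6 cores, the median spacing of neighbouring cores was 40 bp (quartiles 22 and 73 bp, 283 pairs), and no spacing was taken by more than 9 pairs. The regions with the most cores were of another kind. In the *Lingo2* intron, 1725 bp upstream of *Mir876*, 13 cores followed each other at 12 equal spacings of 13 bp, and in a *Ccdc112* intron 21 cores followed each other at spacings of 8 or 11 bp. In the first intron of *Xrcc5*, which encodes the Ku80 subunit of the DNA end-joining machinery, 6 cores stood 25 or 50 bp apart. None of these 3 regions was masked as a repeat over more than 4% of its length, but low masking does not make them free of repeats. The printed *Lingo2* and *Xrcc5* sequences are made of a short unit that recurs in tandem. Their number of cores thus counts copies of that unit, and how uniquely reads map there was not tested. Other regions with many cores included those in *Nfix* (5 cores) and in *Pwwp2a*, *Cubn*, *Lurap1l*, *Tnnt1* and *Bbc3* (4 cores each), where spacings ranged from 6 to 117 bp.

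The Nfat core was present in 302 near-start peaks (23.0%, 20.8 to 25.4%), in 17.7% of the windows beside them (16.2 to 19.2%) and in 41.7% of far intron peaks (40.0 to 43.4%). The odds ratio was 1.40 against the windows (adjusted p = 7.00e-05) and 0.418 against far intron peaks (adjusted p = 7.87e-34), both by a two-sided Fisher's exact test. The difference from the windows was not found with starts of protein-coding genes alone (odds ratio 1.05) or with a limit of 2 kb (0.922), where more of the peaks are CpG-island-like. Without CpG-island-like regions the Nfat core was found in 36.6% of near-start peaks against 18% of windows (odds ratio 2.62), whereas it was present in 6.86% of the CpG-island-like peaks (5.09 to 9.17%) and 11.5% of CpG-island-like tiles. Against far intron peaks, the odds ratio was 0.852 within strata of GC content (0.723 to 1.0) and 0.793 without CpG-island-like regions (36.6% and 42.1%, adjusted p = 0.0143 by Fisher's exact test).

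Both cores were present in 196 near-start peaks (15.0%). The nearest Nfat core lay at a median of 24.5 bp from a Scx core, and in 91 of these regions (46.4%) it was within 20 bp. In far intron peaks with both cores the median was 26.0 bp and the share within 20 bp was 42.6%. Among near-start peaks that were not CpG-island-like, the Scx core was present in 70.1% of 261 regions with an Nfat core (64.3 to 75.3%) and in 72.8% of 452 without (68.5 to 76.7%). In *Lims1*, the region printed above has 1 Scx core and 2 Nfat cores in a sequence of 34.5% GC.

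Of 26 motifs counted as exact letters on both strands, 20 differed in share between near-start peaks and their flanking windows and 21 between near-start and far intron peaks (adjusted p under 0.05 by Fisher's exact test over the 26). GGGCGG of Sp and Klf factors was in 34.1% of near-start peaks, 4.84% of windows and 4.41% of far intron peaks. CCGGAAG of Ets factors was in 2.36%, 0.686% and 0.574%, and CCCNNGGG, a core of Ebf sites, in 16.9%, 5.42% and 5.23%. Several motifs were less frequent than in the windows, among them AGATAA of Gata factors (3.43% and 10.9%) and TAATTA of homeobox factors (2.52% and 6.25%).

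Without CpG-island-like regions and with adjustment over the 26 motifs, 1 motif differed between near-start and far intron peaks, GGGCGG (7.57% and 3.91%, odds ratio 2.02, adjusted p = 0.00166 by Fisher's exact test). The Nfat core, called above with adjustment over the 9 planned tests (adjusted p = 0.0143), was not called over the 26 (adjusted p = 0.0801, both by Fisher's exact test). Against the windows, 10 motifs then differed. A further comparison, chosen after seeing the data, set near-start peaks that were not CpG-island-like against tiles that were not either. Motifs more frequent in these peaks included GGGCGG (7.57% and 2.34%, odds ratio 3.42), TGGAAA (36.6% and 18.8%) and CCCNNGGG (7.71% and 3.84%, odds ratio 2.09). GGAATG of Tead factors was also more frequent (13.7% and 10.5%, odds ratio 1.36, adjusted p = 0.0151 by Fisher's exact test), but was in 16.7% of far intron peaks treated in the same way. Some motifs stayed less frequent in these near-start peaks than in tiles. They included AGATAA (5.33% and 12.3%, adjusted p = 3.63e-09) and ACAATG of Sox factors (6.73% and 11.1%, adjusted p = 0.000326), both by Fisher's exact test. TAATTA was in 4.49% of these near-start peaks and 6.48% of tiles (adjusted p = 0.0605 by Fisher's exact test). AP-1 (TGANTCA) was in 4.21% of these peaks and 5.93% of tiles, and Runx (TGTGGT) in 16.3% and 14.9%, with adjusted p of 0.0913 and 0.362 by the same exact test.

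The gene of the nearest TSS was also the host of the intron in 1094 of 1311 peaks (83.4%), and 1091 lay downstream of that TSS (83.2%). The rule in part fixes these shares, because it leaves out 1000 bp upstream of each TSS but only 100 bp downstream. All 489 peaks at 101 to 500 bp and all 190 at 501 to 1000 bp therefore lay downstream. The share of eligible sequence that lies downstream was not computed. The nearest start was that of a protein-coding gene for 941 peaks, of a lincRNA for 123 and of an antisense RNA for 68. The other starts included those of 18 miRNAs and 51 processed pseudogenes. The 370 peaks nearest a start that was not protein-coding had a Scx core in 71.1% (66.3 to 75.5%) and were CpG-island-like in 7.03%, whereas the 941 nearest a protein-coding start had one in 40.0% (36.9 to 43.1%) and were CpG-island-like in 60.8%.

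CpG-island-like near-start peaks had a close neighbour more often than other near-start peaks. Another peak lay within 1 kb of 39.3% of the former (35.5 to 43.3%) and 11.2% of the latter (9.11 to 13.7%). For far intron peaks the share was 12.3% (11.2 to 13.4%). It was 32.1% for CpG-island-like promoter peaks (29.9 to 34.4%) and 29.1% for CpG-island-like exon peaks (25.8 to 32.6%), so a close neighbour was not particular to introns. The neighbour within 1 kb was another near-start intron peak in 187 cases, a promoter peak in 82 and an exon peak in 44. The peaks belonged to 1176 start genes, of which 117 had 2 peaks and 9 had 3. At *Anp32b*, *Cpsf6*, *Cd63* and *Pds5a* all 3 were CpG-island-like and none had a Scx core. At *Scaf11* and *Vdac1* 2 of 3 were CpG-island-like without a core, and the farthest from the start, at 957 and 4538 bp, had 1 and 2 cores. At *Runx1t1*, *Tnfaip8* and *Col11a2* none was CpG-island-like.

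The genes at these starts were expressed at higher levels than the table as a whole. The authors' mean FPKM could be matched for 812 start genes (925 peaks), of which 748 (92.1%, 90.1 to 93.8%) had at least 1 FPKM in either group, against 78.3% of all 15669 genes. The median of the authors' mean FPKM in control cells was 15.4 for start genes (quartiles 6.49 and 33.0) and 5.65 for all genes (1.23 and 15.2). It was 20.1 for the 493 start genes that had CpG-island-like peaks only and 7.94 for the 300 that had other peaks only. The cells sorted by *Scx-GFP* had high levels of tendon markers (22.9 to 1333 FPKM in control cells and 13.8 to 1178 FPKM in mutant cells for 7 genes, *Tnmd* at 135 and 13.8 FPKM), but also of muscle genes (9.65 to 292 FPKM for 5 genes, 9.41 to 323 FPKM in *Scx*-/- cells), and the marker sums of tendon, cartilage and muscle were 2552, 101 and 352 FPKM in control cells and 2041, 78.8 and 387 FPKM in *Scx*-/- cells. *Xist*, expressed in female cells, was at 175 and 24.9 FPKM, so that sex and genotype cannot be told apart in these means. In such bulk values, fewer cells of a type and less RNA per cell cannot be told apart.

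Few start genes were past 1.5-fold between *Scx*-/- and control cells. On the scale of log2 ratios of the authors' mean FPKM with 1 FPKM added, the median over the 748 start genes was -0.01. No start gene was 1.5-fold or more higher, against 0.147% of all 12274 genes of at least 1 FPKM, and 4 (0.535%) were 1.5-fold or more lower, against 0.253%. Values of single samples were not analysed here, so these ratios carry no error and no test. The 4 lower genes each had at least 1 peak with a Scx core, and none of their peaks was CpG-island-like. *Scx*, the gene deleted in the mutant, is among them, and without it 3 of 747 start genes (0.402%) were lower, against 0.244% of all genes. Of the 288 start genes of at least 1 FPKM with a Scx core in a peak, 4 (1.39%) were lower, against 0.253% of all genes. *Scx* is among these 4 as well, and the difference between these shares was not tested.

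**Figure D5:**
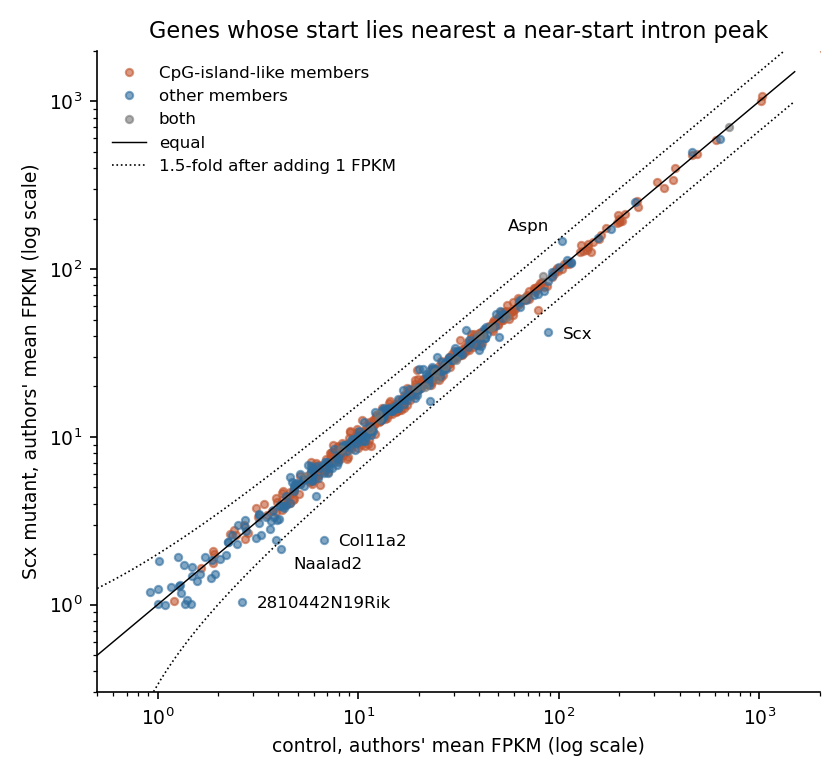
Authors' mean FPKM in control (x axis) and *Scx*-/- cells (y axis), both on a log scale, of the 748 genes whose start lies nearest a near-start intron peak and that had at least 1 FPKM. Colors give the kind of peak, the solid line is equal level and dotted lines are 1.5-fold after adding 1 FPKM. *Col11a2*, *Scx*, *2810442N19Rik* and *Naalad2* lie under the lower dotted line and no gene lies over the upper line.

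*Col11a2*, which encodes a chain of type XI collagen, was at 6.74 FPKM in control cells and 2.44 FPKM in the mutant (log2 ratio -1.17), the lowest ratio of the start genes. *Col11a2* is not among the 32 genes that the study lists as lower with Scx peaks. It had 3 overlapping peaks in its first intron, at 1779, 1881 and 2040 bp from the TSS, with 1, 0 and 3 Scx cores. The gene is also among the cartilage genes, of which *Col2a1* was at 78.3 and 57.1 FPKM and *Acan* at 5.47 and 3.74 FPKM in the same samples. The part of cartilage cells in the *Col11a2* value was not tested.

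*Scx* itself was at 88.6 and 41.9 FPKM (log2 ratio -1.06), a value that checks the genotype only in part because transcript sequence outside the coding region may still be counted. Its peak, with 1 Scx core, lies 4690 bp downstream of the *Scx* TSS in intron 3 of *Bop1*, not in an intron of *Scx*. *Naalad2*, which encodes a peptidase, was at 4.13 and 2.16 FPKM (log2 ratio -0.70), with a peak 4886 bp downstream in intron 2, of which 80.5% is masked as repeats in the genome sequence. *2810442N19Rik* was at 2.63 and 1.04 FPKM (log2 ratio -0.83), and its peak, with 2 Scx cores, lies 3677 bp upstream in *Dnm3*. *Shisa3* was the next lowest at 3.9 and 2.42 FPKM, a log2 ratio of -0.52.

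The highest ratio was that of *Aspn*, which encodes asporin, a small leucine-rich proteoglycan, at 104 FPKM in control cells and 147 FPKM in the mutant (log2 ratio 0.50). It had peaks at 1310 bp (1 Scx core) and 3484 bp (no Scx core and 2 Nfat cores), both also within *Cenpp*, and 55% of the former is masked as repeats. *Pex11g* (1.02 and 1.81 FPKM), *Plac1* (1.27 and 1.92 FPKM) and *Tmed2* (19.6 and 25.1 FPKM) followed, with log2 ratios of 0.48, 0.37 and 0.35, and *Slc26a7* had a ratio of 0.32.

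Genes that the study lists as changed and bound were chosen on these samples, so their direction is not independent evidence. Of 32 lower genes, 5 had a near-start intron peak in or at the gene. *Aqp1*, the gene of a water channel, was at 22.7 and 16.3 FPKM, with a peak 2104 bp into the first intron that holds a Scx core and an Nfat core. *Naalad2* is given above, and the other start genes that were 1.5-fold or more lower (*Col11a2*, *Scx* and *2810442N19Rik*) are not in that list. In *Eya1* (4.01 and 2.69 FPKM), *Mtcl1* (2.00 and 1.11 FPKM) and *Plch1* (0.649 and 0.245 FPKM) the peak was near the start of a pseudogene or an RNA of unknown function within the gene. Of 17 higher genes, *Aspn* and *Lingo2* (1.02 and 1.86 FPKM) had such peaks.

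Of 421 genes in 20 lists, the 2 tables of the study and lists of tendon, matrix, signaling and other functions, 55 had near-start intron peaks, 64 in all. A Scx core was present in 34 of them (53.1%, against 48.7% of all near-start peaks), and 16 were CpG-island-like (25%, against 45.6%). No near-start intron peak was found for the 34 limb patterning factors and the 23 genes of collagen folding, processing and crosslinking, which had 13 and 15 Scx peaks of any class. Over all genes, 1311 of 12097 Scx peaks were near-start intron peaks, so that 0 among so few peaks is not read as a trait of these genes. In each description below the level is the authors' mean FPKM in control and *Scx*-/- cells, and the number of cores is that of the region. A peak was counted for a gene that hosts it or has the nearest TSS. In *Tgfb2*, *Bmp5*, *Fgf9*, *Tcf7l1*, *Col5a1*, *Vcan*, *Fbn2*, *Runx3* and *Lats2* the nearest TSS was that of another annotated gene. The same held for a peak each in *Tcf4*, *Efnb2*, *Palld* and *Amotl1*.

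Among 20 genes of tendon differentiation, *Scx*, *Eya1* and *Col12a1* had such peaks in or near the gene, that of *Scx* in *Bop1*. The *Col12a1* peak, in a gene of a fibril-associated collagen (187 and 187 FPKM), lies 392 bp from the start of the RNA *4930562D21Rik* and has 2 Nfat cores and no Scx core. Of 22 collagen genes, 5 had peaks. Besides *Col11a2* and *Col12a1* they were *Col2a1*, the main collagen of cartilage, at 3228 bp with no core, *Col27a1* (16.7 and 19 FPKM) at 2102 bp with 2 Scx cores, and *Col5a1* (157 and 158 FPKM) with 1 core in its first intron. Of 37 genes of proteoglycans and other matrix proteins, 4 had peaks. They were *Aspn*, *Ogn*, which encodes osteoglycin (239 and 252 FPKM, 4259 bp upstream, 1 Scx core and 2 Nfat cores), the large proteoglycan gene *Vcan* (145 and 175 FPKM, 1 core) and the fibrillin gene *Fbn2* (148 and 151 FPKM, no Scx core and 1 Nfat core).

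Genes of TGF-beta signaling, which acts through receptors that phosphorylate Smad proteins and is needed for tendon formation, had 6 peaks among 19 genes, 4 of them CpG-island-like and 1 with a Scx core. The CpG-island-like peaks were at the receptor gene *Tgfbr3* (382 bp, 25.7 and 28.4 FPKM), the latent TGF-beta binding protein gene *Ltbp4* (1042 bp, 24.1 and 23.1 FPKM), and the signal transducers *Smad2* (554 bp, 16.2 and 15.9 FPKM) and *Smad4* (435 bp, 22.7 and 21.7 FPKM). *Smad3*, with 2 cores at 1314 bp, was at 15.2 FPKM in both groups. The ligand gene *Tgfb2* (41.5 and 41.2 FPKM) had a peak with no core, near the start of the snoRNA gene *Gm26169*. Genes of the related BMP and GDF pathway had 2 peaks among 25 genes, at the receptor gene *Bmpr1b* (3565 bp, 2 Scx cores and 1 Nfat core, 5.94 and 6.54 FPKM) and the ligand gene *Bmp5* (1 Scx core and 1 Nfat core, 9.69 and 9.87 FPKM).

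Of 19 FGF genes, the ligand gene *Fgf8* had a peak at 2148 bp with no core, *Fgf9* had a peak with 1 Scx core and 2 Nfat cores (1.99 and 1.29 FPKM), and the peak in the receptor gene *Fgfr2* (13.6 and 14.2 FPKM) lay 625 bp from the start of *Nsmce4a*. Of 29 Wnt genes, 4 had peaks, 6 in all. The ligand gene *Wnt9a* (5.51 and 5.88 FPKM) had peaks at 1033 and 2522 bp with no core, the co-receptor gene *Lrp5* had a CpG-island-like peak at 387 bp, the nuclear effector *Tcf7l1* (22.6 and 24.8 FPKM) had peaks with 2 and 1 cores, and the secreted inhibitor gene *Frzb* (2.51 and 3.00 FPKM) had a peak with 1 core at 3541 bp.

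Of 23 bHLH genes, the E-protein genes *Tcf4* (88.5 and 85.4 FPKM) and *Tcf12* (75.5 and 77.6 FPKM) had peaks. E-proteins are the dimer partners of tissue-specific bHLH factors. *Tcf12* had a CpG-island-like peak at 337 bp with no core. *Tcf4* had a peak at 1980 bp with 1 core and another with none, near the start of the rRNA gene *Gm24845*. Of 11 genes of Nfat and calcineurin, those of the regulatory and a catalytic subunit of calcineurin, *Ppp3r1* (408 bp, 36.6 and 40.9 FPKM) and *Ppp3ca* (724 bp, 22.3 and 21.8 FPKM), had CpG-island-like peaks with no Scx core and no Nfat core.

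Of 37 genes of the actin cytoskeleton and focal adhesions, 7 had peaks. The integrin gene *Itgb1* (564 bp, 132 and 129 FPKM), *Zyx* (197 bp, 32.3 and 32.0 FPKM) and *Pdlim7* (161 bp, 14.5 and 14.8 FPKM) had CpG-island-like peaks with no core. *Lims1* (715 bp, 28.0 and 28.6 FPKM) and *Palld* (2687 bp, 26.2 and 24.8 FPKM), which encode an adapter of integrin complexes and an actin-bundling protein, had peaks with 1 Scx core. *Palld* also had a peak with no core near the start of *4930512H18Rik*. *Myh10*, a nonmuscle myosin (75.6 and 70.4 FPKM), had a peak at 912 bp with no core. Of 17 Hippo genes, *Tead1* (1778 bp, 1 core, 30.2 and 29.3 FPKM), the kinase gene *Lats2* (17.0 and 17.6 FPKM, no core), and *Amotl1* (421 bp, 1 core, 43.6 and 45.3 FPKM) and *Amotl2* (258 bp, no core) had peaks. *Amotl1* also had a peak with 1 core near the start of *4930584E12Rik*.

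In the remaining lists, the guidance genes *Efnb2* (35.1 and 34.3 FPKM), *Sema3a* (3413 bp, 1 core, 23.4 and 25.5 FPKM) and *Ntn1* (14.6 and 14.4 FPKM) had peaks, as did *Igfbp3* (1481 bp, 1 core, 110 and 113 FPKM) and the metalloproteinase inhibitor gene *Timp3* (84.8 and 73.6 FPKM), whose peak lies 4856 bp upstream in *Syn3*. *Adamts15* had a peak with 1 core at 2820 bp. Of 16 cartilage genes, *Runx3* and *Ucma* had peaks besides *Col2a1* and *Col11a2*. Of 19 skeletal muscle genes only *Tnnt1*, which encodes slow troponin T (64.0 and 59.8 FPKM), had a near-start intron peak, in intron 5 with 4 Scx cores.

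The limit of 5 kb had peaks close to it on both sides. The members farthest from a TSS were at 4996 bp, in *Stau1* (no core) and upstream of *Gm14220* (1 Scx core and 1 Nfat core). The nearest far intron peaks were at 5007 bp, in *Scfd2* (1 Scx core), and at 5024 bp, in *Enah* (no Scx core and 1 Nfat core).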

How the data were processed

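ChIP-seq peaks came from E13.5 forelimbs and expression values from sorted E15.5 cells. Per the methods and the submitters' processing notes, the authors aligned ChIP reads to mm10 with STAR 2.7.4, reduced samples to equal depth, removed duplicates, called peaks of each ChIP sample against input with HOMER 4.11, merged them and tested them with edgeR. The deposited peak table holds positions only. RNA reads were counted with featureCounts (Subread), and DESeq2 was used by the authors for their comparison. The deposited expression table gives the authors' mean FPKM of each group. Its columns of the authors' fold changes, p-values, FDR and status were not used. The tables give no depth per sample.

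Peaks were placed on the GENCODE M21 basic annotation in the order promoter, transcript end, exon, intron, intergenic. Scx and Nfat cores were searched as exact letters on both strands of the RefSeq mm10 sequence (GRCm38). Flanking windows were 200 bp wide, 2000 bp to each side of a peak. Shares were compared with Fisher's exact test and densities with an exact conditional binomial test, with Benjamini-Hochberg adjustment over 9 tests, or over 26 motifs. Genes were named when they belonged to a fixed list (up to the 6 most highly expressed of each list with a peak), had at least 3 peaks, were among the 10 regions with most cores, were among the 5 highest or 5 lowest log2 ratios, or lay next to the 5 kb limit. The study's tables of changed genes were named whole. The members and lists were chosen with earlier results of these data known. The alternatives were other distance limits, protein-coding starts only, merged overlapping peaks, the central 100 bp, other background windows, removal of CpG-island-like regions, strata of GC content, another CpG threshold, expressed genes only, and other FPKM settings. Scripts used Python 3.11.15, scipy 1.17.1, pandas 2.3.3 and statsmodels 0.14.6, and were tested on simulated data. The sequence and position of 1 region are not reported here.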

Additional observations from a re-analysis of the deposited data

How the results depend on the processing

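Removing CpG-island-like regions ended the call of the Scx core share against far intron peaks (odds ratio 0.902, adjusted p = 0.338 by Fisher's exact test) and against promoter peaks (1.31, adjusted p = 0.0612). Against intergenic peaks the difference and the call were lost (1.0, adjusted p = 1, 71.8% on both sides). It also lowered the number of motifs that differed from the windows from 20 to 10 and from far intron peaks from 21 to 1. Within strata of GC content the odds ratio of the Scx core was 1.04 against promoter peaks (0.882 to 1.23), and that of the Nfat core was 0.852 against far intron peaks (0.723 to 1.0), with adjusted p of 0.629 and 0.0674 by Mantel-Haenszel tests. With a limit of 2 kb the Scx core share against promoter peaks had an odds ratio of 1.06 (adjusted p = 0.476 by Fisher's exact test), and the Nfat core share against windows turned to 0.922 (15.9% and 17.0%). With protein-coding starts alone the latter was 1.05 (18.1% and 17.4%). With 0.1 FPKM added, 1 of 748 start genes was 1.5-fold higher in place of 0, against 76 of all 12274 genes. At that setting 5 were lower, against 80 of 12274. With genes of at least 5 FPKM, 2 of 659 start genes were lower in place of 4, against 19 of 8422. With host genes, 2 of 879 were lower (*Col11a2* and *Naalad2*, 0.228%), against 0.253% of all genes.

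The Scx core share against windows, the CpG-island-like share and both densities kept their direction and their side of the threshold under every alternative run. The odds ratio of the Scx core against windows ranged from 1.68 (limit of 2 kb) to 7.21 (tiles, both without CpG-island-like regions). Windows that overlap no peak, tiles without CpG-island-like regions or within strata of GC content, and first against later introns within bins of distance, and start genes without *Scx* (3 lower, 0 higher) were alternatives chosen after seeing the data. No paired analysis was possible because the deposited tables give no values of single samples. For the same reason, leaving out each replicate was not run, and a stricter peak threshold was not run because the table holds no strength of single peaks.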
